A study of Saccharomyces cerevisiae with 9 samples.

Results

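Transcript levels in yeast that overexpress YET3 were set directly against those in yeast labelled as lacking it. The 6 libraries titled as YET3 overexpression or YET3 deletion were taken from the 9 of the series, 3 per strain, and 5090 genes were tested. Every strain is labelled as carrying deletions of HIS, LEU2, MET15 and URA3. The overexpression strain has NATR, which gives resistance to nourseothricin, and a TEF promoter in front of YET3, whereas the deletion strain has NATR in place of YET3. The 3 control libraries, which enter the estimate of spread and are given as values only, come from a strain labelled as carrying NATR at HO. All cultures were in exponential growth in SD medium, a defined glucose medium, with no other treatment. The labels do not say whether the repeats of a strain came from separate cultures or separate clones, so the spread behind the p-values may be technical.

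Yet3 is a membrane protein of the endoplasmic reticulum in the family of mammalian BAP31, with Yet1 and Yet2 as its yeast relatives. The series concerns sterol synthesis at contact sites between organelles. Ergosterol, the main yeast sterol, is made from acetyl-CoA through mevalonate and squalene in a chain of mostly endoplasmic reticulum enzymes. The transcription factor Upc2 raises the genes of that chain when sterols run low, together with genes of anaerobic growth such as the DAN and TIR cell wall genes. Phospholipid synthesis genes, INO1 foremost, are driven by the Ino2-Ino4 factor and held down by Opi1, which binds the endoplasmic reticulum membrane.

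The 6 compared libraries held 403613 to 1634021 counts, so that 1 count stood for 0.612 to 2.48 CPM, the unit of counts scaled to a common library total. They fell into classes that cut across the strains. Rows whose identifiers begin with YLR154W, in the ribosomal DNA locus, held 0.162% of counts in overexpression 3 and 0.267% and 0.111% in labelled-deletion 1 and 3. They held 1.26% and 1.85% in overexpression 1 and 2, 0.937% in labelled-deletion 2 and 0.817% to 2.42% in the controls. The 3 libraries under 0.5% were also separated from the other 6 by the first principal component (47.6% of variance), and 1524 of 5090 genes (29.9%) differed between these classes in the fit with a term for them. The second component (14.9%) held the overexpression libraries at -17.96, -17.78 and -14.72 and the other 6 between 2.11 and 17.5. Most results below are therefore also given with a term in the fit for the 3 libraries low in YLR154W counts, called the term. The a-type mating genes MFA1 and MFA2 had 146 to 1306 counts in each compared library and the alpha-factor genes at most 2. MET15, listed as MET17, had 0 counts in every library, and LEU2 and URA3 had at most 3.

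Rows of 2 other labelled loci held counts where the label names a change. HIS3 had 83 to 235 counts in overexpression, 54 to 253 in the labelled deletion and 63 to 356 in the controls, although every strain is labelled as deleted for HIS. HO had 0 to 4 counts in overexpression, 0 to 5 in the labelled deletion and 13 to 46 in the controls, so it was highest in the strain labelled with the marker at HO. Both rows go against the labels if they count the removed sequence, and the labels and files do not give the counted part of a gene.

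**Figure D1:**
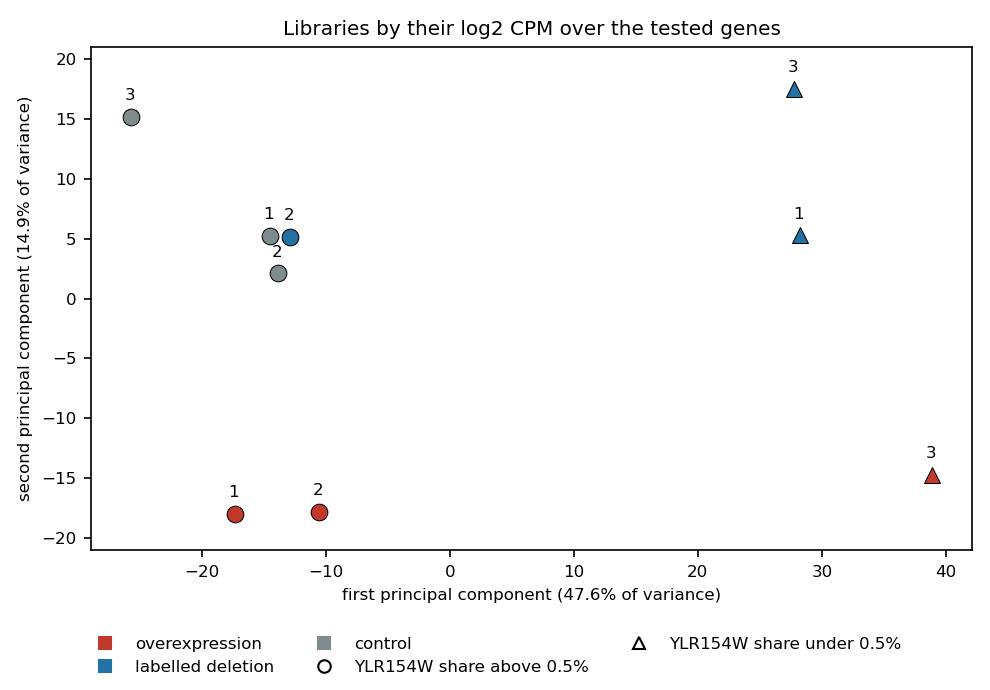
Each point is a library, placed by its first (x axis) and second (y axis) principal component of log2 CPM over the tested genes, numbered by repeat and coloured by strain. Triangles mark the 3 libraries whose YLR154W rows hold under 0.5% of counts, which all lie at the right. The overexpression libraries lie at the bottom.

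YET3 (YDL072C, chromosome IV, 329836 to 330447, build R64) was the check of the strains. It stood at 2261, 2029 and 1341 CPM in overexpression libraries 1 to 3, against 728, 328 and 639.5 CPM in labelled-deletion libraries 1 to 3, with 477, 477 and 479 CPM in the controls. All overexpression libraries lay above the other 6, yet YET3 was counted in each library labelled as deleted, and in labelled-deletion 1 and 3 it lay above the controls. If the row counts the replaced sequence it contradicts the label, and if it counts sequence outside it nothing is checked, and which of these holds is not known from the labels or files. These libraries are called labelled YET3 deletion throughout, and each direction below is relative to them. The means were 1877 ± 478 CPM in overexpression and 565 ± 210.2 CPM in the labelled deletion (SD, n = 3 each; adjusted p = 0.0182, log2 fold change 1.73, SE 0.30; 1.82 with the term, SE 0.28, adjusted p = 2.70e-04). The log2 fold change was 2.71 between overexpression 1 and 2 and labelled-deletion 2, and 0.97 between overexpression 3 and labelled-deletion 1 and 3. The call ended without overexpression 1 or 2, labelled-deletion 3 or control 1 or 3 (adjusted p = 0.0507 to 0.0987). YET1 was at 384, 451 and 523 CPM in overexpression and 319, 334 and 365 CPM in the labelled deletion and did not pass either fit. YET2 passed only with the term (1.10, SE 0.22, adjusted p = 0.00393) and its libraries overlapped between strains.

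The direct comparison gave a short list of genes, nearly all of them higher in overexpression. At an adjusted p under 0.05 in edgeR's quasi-likelihood test, hereafter called, 34 genes were higher (0.668% of those tested) and 3 were lower (0.0589%). The 6 libraries did not overlap for any of these 37 genes, against 483 such genes (9.49%) among all 5090. In RNA from whole cultures, a change in the share of cells that express a gene and a change in RNA per cell cannot be told apart. With the term, 89 genes were higher (1.75%) and 17 lower (0.334%), and all 37 were among them. The libraries overlapped for 22 of the 106. All 106 (2.08%) had 1 direction within both classes of libraries, that is in overexpression 1 and 2 against labelled-deletion 2 and in overexpression 3 against labelled-deletion 1 and 3, as did 56.9% of all genes. The calls used the same libraries and the term for these classes, so this is a description and no sign of stability. A fit without the 3 libraries low in YLR154W, which leaves labelled-deletion 2 alone for its strain and lets it vary like the other libraries, called 59 higher and 17 lower (1.44% of 5262 genes in all), with 29 of the 37 among them.

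The length of the list rested on single libraries. The count of higher genes was 20 without overexpression 1, 15 without overexpression 2 and 57 without overexpression 3. It was 16 without labelled-deletion 1, 30 without labelled-deletion 2 and 14 without labelled-deletion 3. Without control 1, 2 and 3 it was 17, 20 and 18. The count of lower genes was 1 without overexpression 2 and 17 without overexpression 3. The list also depended on the controls in the estimate of spread. A fit of the 6 compared libraries alone called 13 higher and 2 lower of 4895 genes, and 15 of the 37 were called there. Of the 37 genes, 13 were called whichever library was left out. These were TIR1, TIR3, DAN1, ERG3, OLE1, HEM13, HES1, INO1, HSP26, PUN1, PBI1, YPR145C-A and ZPS1.

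**Figure D2:**
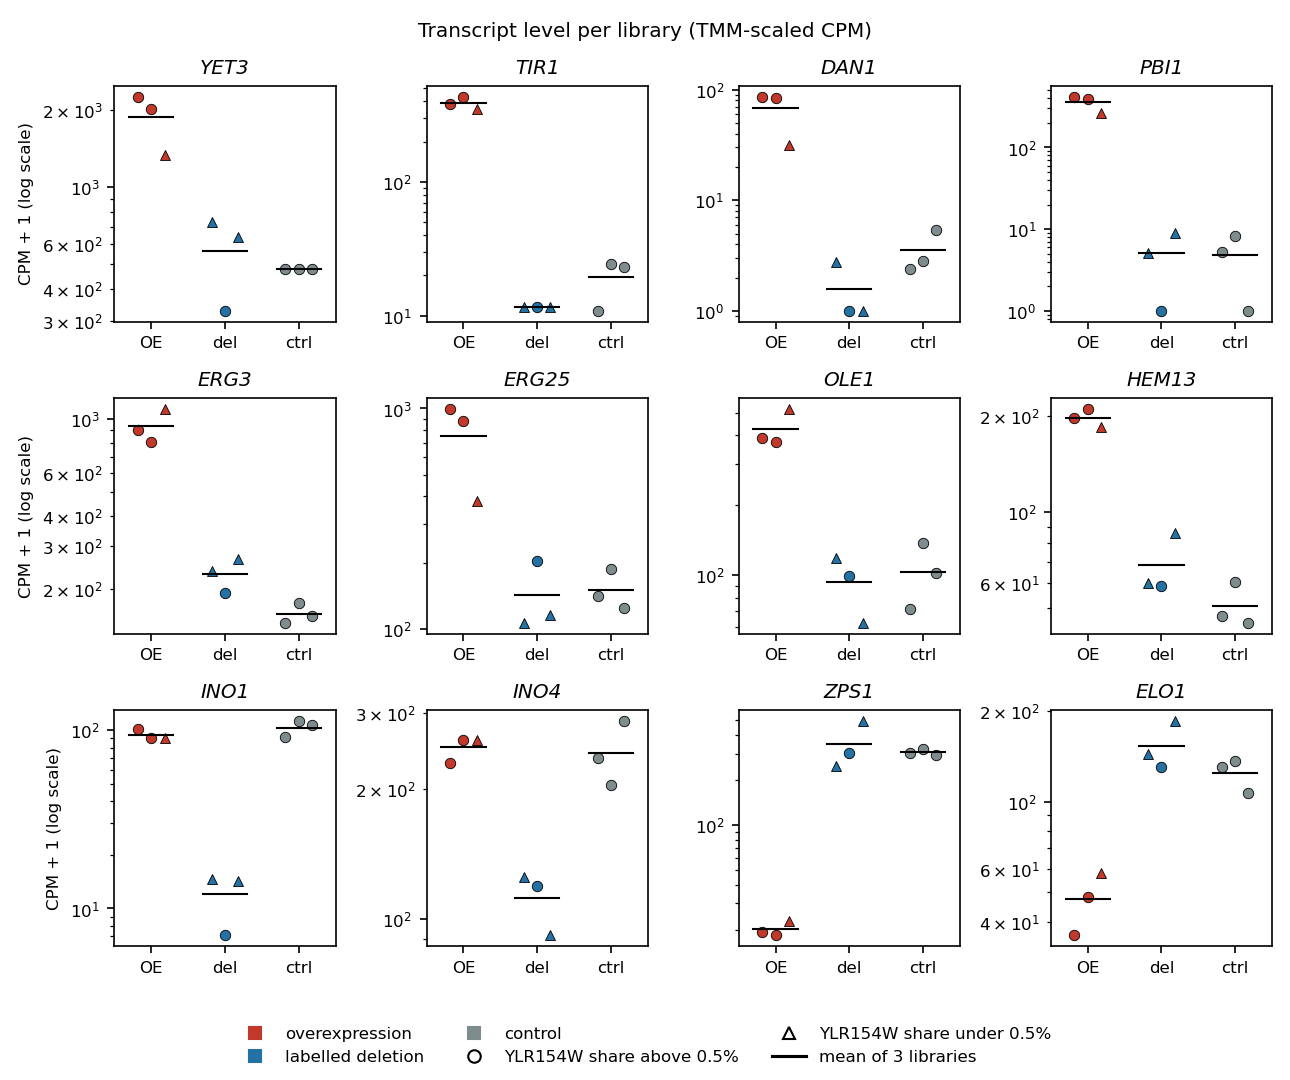
TMM-scaled CPM plus 1 on a log axis for 12 genes, with a point per library, overexpression (OE) at the left, labelled deletion (del) in the middle and control (ctrl) at the right, and a line at each mean of 3 libraries. Overexpression lies above both other strains for YET3, TIR1, DAN1, PBI1, ERG3, ERG25, OLE1 and HEM13 and below both for ZPS1 and ELO1. For INO1 and INO4 the labelled deletion lies below both.

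Of the lists examined, late ergosterol synthesis held the most called genes with the term. Of the 15 tested genes after farnesyl pyrophosphate, 4 were called without the term and 11 with it, where 0.727% and 2.08% of all genes were. None of the 15 was lower, and all 15 had positive log2 fold changes, against 48% of all genes. Their median was 1.45 (1.07 with the term), where the median over all 5090 genes was -0.02 in either fit. For 11 of the 15 the overexpression libraries all lay above the labelled deletion, against 270 of 5090 genes (5.3%) overall. The list was chosen with results of these libraries known and is no independent evidence of its direction. The count called without the term was 10 without overexpression 3, 1 without labelled-deletion 3 and 2 without overexpression 2, labelled-deletion 1, control 1 or control 3.

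ERG3 (YLR056W, chromosome XII, 253861 to 254958), the C-5 sterol desaturase, stood at 905, 804 and 1103 CPM in overexpression libraries 1 to 3, against 235, 191 and 264 CPM in labelled-deletion libraries 1 to 3. The groups lay far apart, with overexpression 2 the lowest of its strain and labelled-deletion 3 the highest of its own. The means were 937 ± 152 CPM in overexpression and 230.1 ± 36.6 CPM in the labelled deletion (SD, n = 3 each; adjusted p = 4.80e-04, log2 fold change 2.03, SE 0.23; 2.16 with the term, SE 0.17, adjusted p = 1.55e-08). ERG25 (YGR060W, chromosome VII, 610564 to 611493), the C-4 methyl sterol oxidase, stood at 995, 878 and 379 CPM in overexpression libraries 1 to 3, against 105, 203 and 115 CPM in labelled-deletion libraries 1 to 3 (adjusted p = 0.00754, log2 fold change 2.42, SE 0.37; 2.01 with the term, SE 0.20, adjusted p = 4.88e-07). The groups did not overlap, but overexpression 3 lay well under overexpression 1 and 2, and the call ended without labelled-deletion 1 or 3 (adjusted p = 0.0615 to 0.0831). ERG28 (YER044C, chromosome V, 237570 to 238016), the scaffold of the C-4 demethylation enzymes, stood at 521, 668 and 1059 CPM in overexpression libraries 1 to 3, against 299.8, 182 and 319.8 CPM in labelled-deletion libraries 1 to 3 (adjusted p = 0.0418, log2 fold change 1.49, SE 0.30; 1.74 with the term, SE 0.18, adjusted p = 1.05e-06). ERG5 (YMR015C, chromosome XIII, 300869 to 302485), the C-22 desaturase, stood at 78.4, 101 and 140.0 CPM in overexpression libraries 1 to 3, against 42.6, 27.3 and 34.6 CPM in labelled-deletion libraries 1 to 3 (adjusted p = 0.0377, log2 fold change 1.56, SE 0.31; 1.76 with the term, SE 0.25, adjusted p = 1.07e-04). In both, overexpression 3 was the highest of the 6 libraries. The ERG28 call ended without overexpression 2, labelled-deletion 1, 2 or 3 or control 1, 2 or 3 (adjusted p = 0.0828 to 0.122). The ERG5 call ended without overexpression 2, labelled-deletion 1, 2 or 3 or control 1 or 3 (adjusted p = 0.0652 to 0.136).

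A further 7 genes of this stretch passed only with the term. They were ERG1, the squalene epoxidase (1.60 with the term, SE 0.25, adjusted p = 3.56e-04), ERG11, the lanosterol C-14 demethylase (1.49 with the term, SE 0.19, adjusted p = 2.96e-05), and the C-4 enzymes ERG26 (1.19 with the term, SE 0.19, adjusted p = 3.80e-04) and ERG27 (0.87 with the term, SE 0.17, adjusted p = 0.00464). The others were the C-8 isomerase ERG2 (1.01 with the term, SE 0.20, adjusted p = 0.00355), the C-24 reductase ERG4 (1.07 with the term, SE 0.17, adjusted p = 3.99e-04) and NCP1, the P450 reductase that serves Erg11 (0.81 with the term, SE 0.18, adjusted p = 0.0154). The libraries of ERG2 and NCP1 overlapped between strains, and those of the other 5 did not. ERG11 was at 1126, 957 and 315 CPM in overexpression libraries 1 to 3, against 141, 308 and 136 CPM in labelled-deletion libraries 1 to 3, where overexpression 3 and both labelled-deletion libraries of its class are each the lower ones of their strain. The low-YLR154W libraries were lower than the others for ERG6 (-1.78 on the log2 scale), ERG11 (-1.44), NCP1 (-1.40), ERG2 (-1.21) and ERG25 (-1.12), but higher for ERG28 (0.80). ERG6, the C-24 methyltransferase, was at 861, 621 and 151 CPM in overexpression libraries 1 to 3, against 94.6, 308 and 173 CPM in labelled-deletion libraries 1 to 3. These overlap, and ERG6 passed neither fit, as was also the case for ERG9, ERG7 and ERG24, the genes of squalene synthase, lanosterol synthase and the C-14 reductase.

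Of the 9 genes from acetyl-CoA to farnesyl pyrophosphate, none was called without the term, where 0.727% of all genes were, and 2 with it (median 0.41 and 0.47). At an unadjusted p under 0.05 it was 4 of the 9 in edgeR without the term, where it was 6.76% of all genes, and the DESeq2 Wald test called 2, where it called 1.16% of all genes. The 2 called with the term were ERG10, the acetoacetyl-CoA thiolase (492, 499.7 and 418 CPM in overexpression and 178, 241 and 325 CPM in the labelled deletion; 0.92 with the term, SE 0.21, adjusted p = 0.0142), and MVD1, the mevalonate pyrophosphate decarboxylase (170.2, 175 and 147 CPM in overexpression and 73.9, 89.5 and 66.6 CPM in the labelled deletion; 0.99 with the term, SE 0.20, adjusted p = 0.00543). The HMG-CoA reductase genes HMG1 and HMG2 had overlapping libraries, at 48.1 to 115 and 50.3 to 142 CPM in overexpression and 49.7 to 80.4 and 68.0 to 111 CPM in the labelled deletion.

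**Figure D3:**
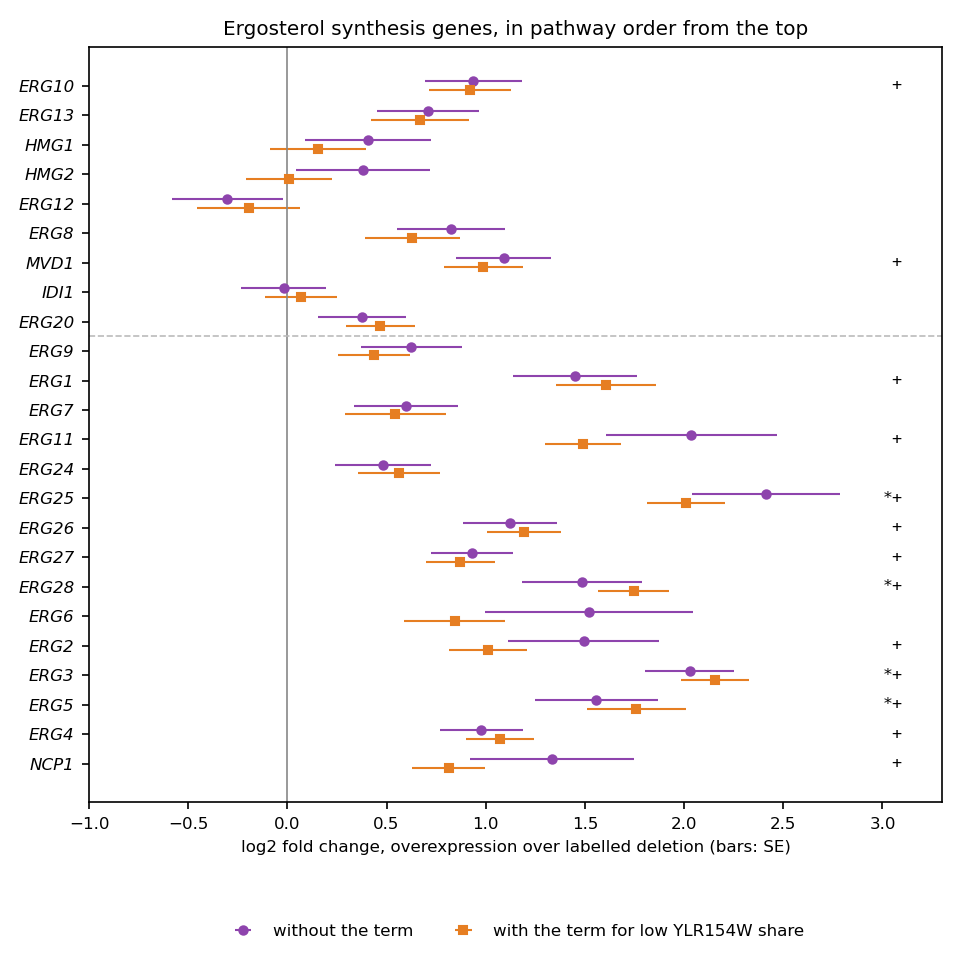
Log2 fold change with its standard error (x axis) for 24 ergosterol genes in pathway order from the top, with NCP1 last, without the term (circles) and with it (squares). A star marks genes called without the term and a plus those called with it, and the dashed line separates the genes up to farnesyl pyrophosphate from those after it. All 15 later genes lie to the right of 0 in both fits.

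Sequence before the start codon was read for motifs tied to these genes, because several called genes share them. The motifs were chosen with the called genes known, so their shares are a description and no independent evidence. The window ran from 550 to 51 bases before the start codon, in RefSeq build R64, for 5016 tested genes. The 7 letters TCGTATA, a core of the sterol regulatory element bound by Upc2, were found on either strand in 8 of the 34 higher genes (23.5%) and in 335 of 5016 windows (6.68%). TCGTTNAG, a loose form of the AR1 site of DAN and TIR promoters with any base at N, was found in 11 of the 34 (32.4%) and in 257 windows (5.12%). In NRG2 and ATG5 N was G, and in the rest of the 11 it was T or C. With the term the shares were 16 of 89 (18.0%) and 23 of 89 (25.8%). Among genes higher only with the term N was A in MGA2, YER158C, YMR317W and YNL208W and G in CMK2. Genes lower with the term held matches too, TCGTATA in YVH1 and PRY3 and TCGTTNAG in CWP1. Matches of these motifs did not overlap each other in the called genes. A match describes the letters only and shows no binding. The stretches of 3 sterol genes are printed 5′ to 3′ on the gene's strand, in the order ERG3 (chrXII:253430-253593, plus strand), ERG25 (chrVII:610021-610119, plus strand) and ERG28 (chrV:238276-238306, minus strand), with matches in capitals, because these genes were among the 4 called without the term.
ERG3: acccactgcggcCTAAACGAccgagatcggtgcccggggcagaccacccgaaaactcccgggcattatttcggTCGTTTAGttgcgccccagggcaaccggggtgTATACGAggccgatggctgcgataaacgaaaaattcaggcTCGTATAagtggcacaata
ERG25: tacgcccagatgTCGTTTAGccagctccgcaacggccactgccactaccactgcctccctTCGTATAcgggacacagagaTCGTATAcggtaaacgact
ERG28: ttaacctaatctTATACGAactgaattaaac
The ERG3 stretch, 431 to 268 bases before the start codon, holds 4 matches, a pair of each motif. The ERG25 stretch holds 3 and the ERG28 stretch 1. ERG5, the other late sterol gene called without the term, held neither motif in its window and is not printed.

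Cell wall mannoprotein genes of anaerobic growth had the highest median of the lists with at least 5 tested members. TIR1 (YER011W, chromosome V, 175248 to 176012) stood at 380.5, 432 and 348 CPM in overexpression libraries 1 to 3, against 10.6, 10.6 and 10.7 CPM in labelled-deletion libraries 1 to 3. The means were 387 ± 42.3 CPM in overexpression and 10.6 ± 0.0198 CPM in the labelled deletion (SD, n = 3 each; adjusted p = 3.23e-06, log2 fold change 5.16, SE 0.32; 5.09 with the term, SE 0.26, adjusted p = 1.21e-11). The groups lay apart. They rest on 228, 274 and 159 counts in overexpression and 18, 7 and 4 in the labelled deletion, so the SD of the labelled deletion lies below counting error. TIR3 (YIL011W, chromosome IX, 333727 to 334536) stood at 170.2, 186 and 87.5 CPM in overexpression libraries 1 to 3, against 10.6, 16.7 and 26.6 CPM in labelled-deletion libraries 1 to 3 (adjusted p = 6.32e-04, log2 fold change 3.24, SE 0.37; 2.97 with the term, SE 0.29, adjusted p = 4.78e-07). DAN1 (YJR150C, chromosome X, 708811 to 709707) had 51, 53 and 14 counts in overexpression, against 3, 0 and 0 counts in the labelled deletion. Pooled over each strain and scaled to TMM-adjusted library totals, that is a ratio of 63.5 (95% exact interval 21.2 to 312, counting error only), and the fitted value was 5.78 (SE 0.64, adjusted p = 4.80e-04; 5.20 with the term, SE 0.55, adjusted p = 1.62e-06). All 3 labelled-deletion counts of DAN1 are in labelled-deletion 1, and without that library the fitted value was 8.49, which depends on the prior count of the fit. DAN4, beside DAN1 on the chromosome, passed only with the term (33.4, 25.2 and 43.8 CPM in overexpression and 10.1, 7.59 and 5.33 CPM in the labelled deletion; 2.14 with the term, SE 0.41, adjusted p = 0.00342). Of the 6 tested members, 3 were called without the term and 4 with it, at a median of 2.60 and 2.56, where 0.727% and 2.08% of all genes were called. PAU23 and TIR4 passed neither fit and their libraries overlapped. Reads of these families may be shared between near-identical members, and how such reads were counted is not stated in the labels.

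TIR1 and DAN1 are shown with PBI1 and HES1, which are described below, since these genes have the 4 largest log2 fold changes and each holds a match. Their stretches lie at chrV:174709-174739, plus strand for TIR1, chrX:709868-710131, minus strand for DAN1, chrXVI:28313-28490, minus strand for PBI1 and chrXV:781646-781677, plus strand for HES1.
TIR1: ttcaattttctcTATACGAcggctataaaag
DAN1: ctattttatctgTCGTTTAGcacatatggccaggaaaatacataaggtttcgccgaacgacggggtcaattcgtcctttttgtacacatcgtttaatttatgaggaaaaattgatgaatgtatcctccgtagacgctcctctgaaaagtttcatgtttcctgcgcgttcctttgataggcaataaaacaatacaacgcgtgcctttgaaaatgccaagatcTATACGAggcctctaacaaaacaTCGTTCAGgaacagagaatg
PBI1: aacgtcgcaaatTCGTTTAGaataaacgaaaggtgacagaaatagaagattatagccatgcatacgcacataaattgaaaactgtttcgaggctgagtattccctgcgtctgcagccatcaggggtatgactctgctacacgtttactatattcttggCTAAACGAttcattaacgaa
HES1: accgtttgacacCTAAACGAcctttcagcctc
Capitals mark TCGTATA or TCGTTNAG on either strand. DAN1 holds 1 match of the first and 2 of the second, PBI1 2 of the second, TIR1 1 of the first and HES1 1 of the second.

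Of 10 tested genes listed as hypoxic, 4 were higher in both fits, where 0.668% of all genes were higher without the term and 1.75% with it. OLE1 (YGL055W, chromosome VII, 398628 to 400160), the Δ9 fatty acid desaturase that needs oxygen, stood at 387, 374 and 519 CPM in overexpression libraries 1 to 3, against 118, 98.6 and 61.3 CPM in labelled-deletion libraries 1 to 3 (means 426 ± 80.1 and 92.5 ± 28.7 CPM for overexpression and the labelled deletion, SD, n = 3 each; adjusted p = 0.00373, log2 fold change 2.16, SE 0.30; 2.20 with the term, SE 0.24, adjusted p = 1.62e-06). HEM13 (YDR044W, chromosome IV, 546642 to 547628), the oxygen-dependent coproporphyrinogen oxidase of heme synthesis, stood at 197, 209.6 and 184 CPM in overexpression libraries 1 to 3, against 59.1, 57.6 and 85.3 CPM in labelled-deletion libraries 1 to 3 (adjusted p = 0.00622, log2 fold change 1.58, SE 0.23; 1.62 with the term, SE 0.21, adjusted p = 2.96e-05). It was the only called gene among 9 of heme synthesis, whose median was 0.01. CYB5, cytochrome b5 and an electron donor to sterol and fatty acid desaturation, stood at 76.8, 91.4 and 127 CPM in overexpression libraries 1 to 3, against 42.0, 31.9 and 26.6 CPM in labelled-deletion libraries 1 to 3 (adjusted p = 0.0368, log2 fold change 1.47, SE 0.29; 1.60 with the term, SE 0.24, adjusted p = 2.81e-04). SCM4, a mitochondrial outer membrane protein, stood at 112, 101 and 59.1 CPM in overexpression libraries 1 to 3, against 24.8, 41.0 and 29.3 CPM in labelled-deletion libraries 1 to 3 (adjusted p = 0.0367, log2 fold change 1.56, SE 0.30; 1.29 with the term, SE 0.24, adjusted p = 0.00231). The groups overlapped in none of these. Over the 10 listed genes the median was 0.99 and the values ran from -0.90 to 2.16. The other 6, among them the hypoxic isoform genes COX5B and CYC7, were called in neither fit, and all overexpression libraries lay below the labelled deletion for CYC7 (log2 fold change -0.90) and above it for ANB1 (1.45). The CYB5 call ended without overexpression 2, labelled-deletion 1, 2 or 3 or control 1, 2 or 3 (adjusted p = 0.0516 to 0.134). The SCM4 call ended without overexpression 1 or 2, labelled-deletion 1 or 3 or control 1, 2 or 3 (adjusted p = 0.0615 to 0.211).

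Among 12 regulators of sterol and oxygen response, only UPC2 itself was called without the term, where 0.727% of all genes were. UPC2 (YDR213W, chromosome IV, 889751 to 892492) stood at 53.4, 52.0 and 28.4 CPM in overexpression libraries 1 to 3, against 8.87, 19.7 and 7.99 CPM in labelled-deletion libraries 1 to 3 (adjusted p = 0.0416, log2 fold change 1.91, SE 0.39; 1.53 with the term, SE 0.33, adjusted p = 0.0108). The groups did not overlap, with overexpression 3 nearest to the labelled deletion. The call ended without overexpression 1 or 2, labelled-deletion 1 or 3 or control 1, 2 or 3 (adjusted p = 0.0822 to 0.291). MGA2, the membrane-tethered activator of OLE1, passed with the term alone (110.1, 136 and 245 CPM in overexpression and 130.1, 71.3 and 85.3 CPM in the labelled deletion; 0.97 with the term, SE 0.20, adjusted p = 0.00645). The MGA2 groups overlapped, and the list median was 0.11. NRG2, a transcriptional repressor of the glucose response, is not one of the 12 and was called as well. It stood at 174, 189 and 274 CPM in overexpression libraries 1 to 3, against 88.1, 44.0 and 56.0 CPM in labelled-deletion libraries 1 to 3 (adjusted p = 0.0166, log2 fold change 1.70, SE 0.29; 1.90 with the term, SE 0.20, adjusted p = 1.62e-06). The NRG2 call ended without labelled-deletion 3 (adjusted p = 0.0932). The UPC2 window holds the AR1 letters, shown here for a regulator of the pathway (chrIV:889379-889410, plus strand).
UPC2: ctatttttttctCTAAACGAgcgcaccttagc

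Of 23 genes of sterol esterification, uptake and transport, HES1 was called without the term and ATF2 joined it with the term, at a list median of 0.08 and 0.11. The shares called over all genes were 0.727% and 2.08%. HES1 (YOR237W, chromosome XV, 781994 to 783298), a member of the oxysterol-binding protein family, had 11, 13 and 14 counts in overexpression, against 3, 0 and 0 in the labelled deletion. The pooled ratio was 20.4 (95% exact interval 6.49 to 104, counting error only), and the fit gave an adjusted p of 0.00754 (1.26e-04 with the term). The 3 labelled-deletion counts of HES1 are all in labelled-deletion 1. The fitted log2 fold change of 4.23 became 6.93 without that library, a value that depends on the prior count. ATF2, an alcohol acetyltransferase that also acetylates steroids, lies beside ERG1 on chromosome VII. It stood at 75.1, 55.2 and 76.6 CPM in overexpression libraries 1 to 3, against 17.7, 24.3 and 37.3 CPM in labelled-deletion libraries 1 to 3 (1.60 with the term, SE 0.32, adjusted p = 0.00482; adjusted p = 0.0785 without the term), with no overlap between the groups.

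INO1 and INO4 differed from the sterol genes in where the control lay. INO1 (YJL153C, chromosome X, 134332 to 135933), the inositol 3-phosphate synthase, stood at 100.1, 89.8 and 89.7 CPM in overexpression libraries 1 to 3, against 13.6, 6.07 and 13.3 CPM in labelled-deletion libraries 1 to 3, with 90.1, 112 and 106 CPM in the controls. The means were 93.2 ± 5.98 CPM in overexpression and 11.0 ± 4.27 CPM in the labelled deletion (SD, n = 3 each; adjusted p = 1.62e-04, log2 fold change 3.02, SE 0.30; 3.06 with the term, SE 0.29, adjusted p = 4.78e-07). INO4 (YOL108C, chromosome XV, 111431 to 111886), the partner of Ino2 in the activator of INO1, stood at 229, 258 and 258 CPM in overexpression libraries 1 to 3, against 124, 118 and 90.6 CPM in labelled-deletion libraries 1 to 3, with 235, 203 and 286 CPM in the controls (adjusted p = 0.0368, log2 fold change 1.14, SE 0.22; 1.13 with the term, SE 0.19, adjusted p = 0.00113). In both, the labelled deletion lay below the overexpression and the control libraries, which overlapped each other. Against the control, the log2 fold change of INO1 was -0.13 in overexpression (adjusted p = 0.924), where 43 genes (0.845%) were called, and -3.16 in the labelled deletion (adjusted p = 4.53e-04), where it was the 1 called gene (0.0196%). These 2 comparisons share the control libraries. The INO4 call ended without overexpression 1 or 2, labelled-deletion 1, 2 or 3 or control 1, 2 or 3 (adjusted p = 0.0607 to 0.185).

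No other of the 20 tested genes of phospholipid synthesis and its Ino2-Ino4 control was called in either fit. The list median was 0.22 (0.30 with the term) and 16 of 20 values were positive, against 48% of all genes. For 4 of the 20 the overexpression libraries all lay above the labelled deletion, against 5.3% of all genes. Beside INO1 and INO4 these were OPI3, a phospholipid methyltransferase (1614, 1409 and 1042 CPM in overexpression and 667, 787 and 871 CPM in the labelled deletion), and the repressor gene OPI1 (215, 189 and 190.4 CPM in overexpression and 131, 139.6 and 107 CPM in the labelled deletion). INO2 overlapped, at 55.1, 61.5 and 26.3 CPM in overexpression and 10.1, 19.7 and 42.6 CPM in the labelled deletion. CHO1, the phosphatidylserine synthase, overlapped as well (320.4, 329 and 597 CPM in overexpression and 384, 329 and 439.7 CPM in the labelled deletion). The other 14 were CHO2, PSD1, PSD2, PIS1, CDS1, ITR1, EKI1, CKI1, CPT1, EPT1, PCT1, ECT1, HNM1 and INM1, enzymes and transporters of phospholipid, inositol and choline metabolism. Their groups all overlapped, with log2 fold changes from -0.09 for PIS1 to 0.44 for CKI1 without the term, and from -0.31 for PCT1 to 0.44 for ECT1 with it.

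The letters CATGTG, the core of the inositol element bound by Ino2-Ino4, were searched after a longer form of the element had given only 3 matches in 5016 windows (0.0598%), none in the 34 higher genes and 1 in the 89 higher with the term. The core occurred in 706 windows (14.1%) and in 5 of the 34 (14.7%), which were INO1, INO4, BAG7, FHN1 and YIP3. With the term it was in 18 of 89 (20.2%). The INO1 stretch (chrX:136094-136188, minus strand), 255 to 161 bases before its start codon, is printed because it is the called gene of this group with the largest change, with the 2 CATGTG matches in capitals.
INO1: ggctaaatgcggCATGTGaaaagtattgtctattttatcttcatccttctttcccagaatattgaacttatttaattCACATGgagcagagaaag

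Fatty acid genes went both ways. Beside OLE1, ELO1 (YJL196C, chromosome X, 67850 to 68782), the elongase of medium-chain fatty acids, was lower in overexpression, at 35.0, 47.3 and 56.9 CPM in overexpression libraries 1 to 3, against 143, 129 and 184 CPM in labelled-deletion libraries 1 to 3 (means 46.4 ± 10.9 and 152 ± 28.5 CPM for overexpression and the labelled deletion, SD, n = 3 each; adjusted p = 0.00673, log2 fold change -1.71, SE 0.26; -1.57 with the term, SE 0.22, adjusted p = 1.07e-04). The groups did not overlap, and the call ended without overexpression 2 (adjusted p = 0.0520). With the term FAS2 (0.81 with the term, SE 0.19, adjusted p = 0.0201), ACB1 (0.82 with the term, SE 0.17, adjusted p = 0.00543), ACC1 (0.74 with the term, SE 0.17, adjusted p = 0.0143) and FAS1 (0.66 with the term, SE 0.17, adjusted p = 0.0459) were also higher. FAS1 and FAS2 encode the fatty acid synthase subunits, ACC1 the acetyl-CoA carboxylase and ACB1 the acyl-CoA-binding protein. FAS2 and ACB1 were lower in the low-YLR154W libraries (-1.05 and -0.97 on the log2 scale), whereas FAS1 was not far from 0 (0.04). The groups overlapped for FAS2 and ACB1. ACC1 and FAS1 were named after their values were seen. The list of 15 had a median of -0.00402 without the term and 0.05 with it.

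The largest decrease among the called genes was in ZPS1, a zinc-responsive cell wall protein gene. ZPS1 (YOL154W, chromosome XV, 34658 to 35407) stood at 18.4, 17.3 and 21.9 CPM in overexpression libraries 1 to 3, against 248, 302 and 493 CPM in labelled-deletion libraries 1 to 3, with 301, 321 and 295 CPM in the controls. The means were 19.2 ± 2.38 CPM in overexpression and 348 ± 129 CPM in the labelled deletion (SD, n = 3 each; adjusted p = 1.91e-05, log2 fold change -4.16, SE 0.32; -4.05 with the term, SE 0.29, adjusted p = 2.61e-09). The groups did not overlap, and the labelled deletion and the control did. ZRT1, the high-affinity zinc transporter, was lower with the term only (174, 147 and 208 CPM in overexpression and 256, 337 and 528 CPM in the labelled deletion; -0.97 with the term, SE 0.23, adjusted p = 0.0202). IZH4 and IZH1, of a membrane receptor family tied to zinc metabolism, were higher. IZH4 had 24, 22 and 26 counts in overexpression, against 9, 2 and 7 in the labelled deletion, a pooled ratio of 6.46 (95% exact interval 3.81 to 11.5; adjusted p = 0.0409, log2 fold change 2.59, SE 0.52; 2.96 with the term, SE 0.46, adjusted p = 3.56e-04). IZH1 stood at 35.0, 29.9 and 26.3 CPM in overexpression libraries 1 to 3, against 10.6, 10.6 and 7.99 CPM in labelled-deletion libraries 1 to 3 (adjusted p = 0.0499, log2 fold change 1.58, SE 0.33; 1.47 with the term, SE 0.38, adjusted p = 0.0430). Without labelled-deletion 3 the IZH4 value was 3.21. The IZH4 call ended without overexpression 1 or 2, labelled-deletion 1 or 2 or control 1, 2 or 3 (adjusted p = 0.0671 to 0.295). The IZH1 call ended without overexpression 1 or 2, labelled-deletion 1, 2 or 3 or control 1, 2 or 3 (adjusted p = 0.0751 to 0.294). Of 15 tested zinc genes 2 were higher and 1 lower without the term, and 2 and 2 with it, at a median of -0.14 and -0.27. The shares called over all genes were 0.727% and 2.08%. The zinc-responsive element of Zap1 was in 9 of 5016 windows (0.179%), and of the 106 called genes in ZRT1 alone, 204 to 194 bases before its start codon.

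Several of the largest increases fell outside the lipid and wall lists. PBI1 (YPL272C, chromosome XVI, 26611 to 28164) had 250, 247 and 120 counts in overexpression, against 7, 0 and 3 in the labelled deletion and 3, 12 and 0 in the control. The pooled ratio was 99.6 (95% exact interval 53.8 to 209, counting error only; adjusted p = 1.91e-05, 6.79e-11 with the term). YPR145C-A (YPR145C-A, chromosome XVI, 824690 to 824926), a small open reading frame, stood at 200.3, 284 and 439.8 CPM in overexpression libraries 1 to 3, against 20.7, 18.2 and 13.3 CPM in labelled-deletion libraries 1 to 3 (adjusted p = 7.43e-05, log2 fold change 4.05, SE 0.36; 4.27 with the term, SE 0.26, adjusted p = 1.68e-10). The groups overlapped in neither gene. HSP26 (YBR072W, chromosome II, 382030 to 382674), the small heat shock protein, stood at 227, 230.1 and 182 CPM in overexpression libraries 1 to 3, against 51.4, 48.5 and 56.0 CPM in labelled-deletion libraries 1 to 3 (adjusted p = 0.00128, log2 fold change 2.04, SE 0.25; 1.99 with the term, SE 0.22, adjusted p = 3.47e-06). It was the only one of 28 heat shock chaperone genes called without the term, where 0.727% of all genes were, at a list median of 0.09. BTN2 joined it with the term (1.13 with the term, SE 0.25, adjusted p = 0.0121), where 2.08% of all genes were called. SRO77, of the exocytosis regulators related to Sro7, had 30, 26 and 8 counts in overexpression, against 12, 1 and 2 in the labelled deletion, a pooled ratio of 6.89 (95% exact interval 3.88 to 13.0; 2.46 with the term, SE 0.50, adjusted p = 0.00528). Its log2 fold change was 4.76 within the libraries of higher YLR154W share and 1.36 within the others, against 2.78 over all libraries and 3.57 without labelled-deletion 1, and the call ended without overexpression 1 or 2, labelled-deletion 1 or 3 or control 1 or 3 (adjusted p = 0.0516 to 0.113).

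**Figure D4:**
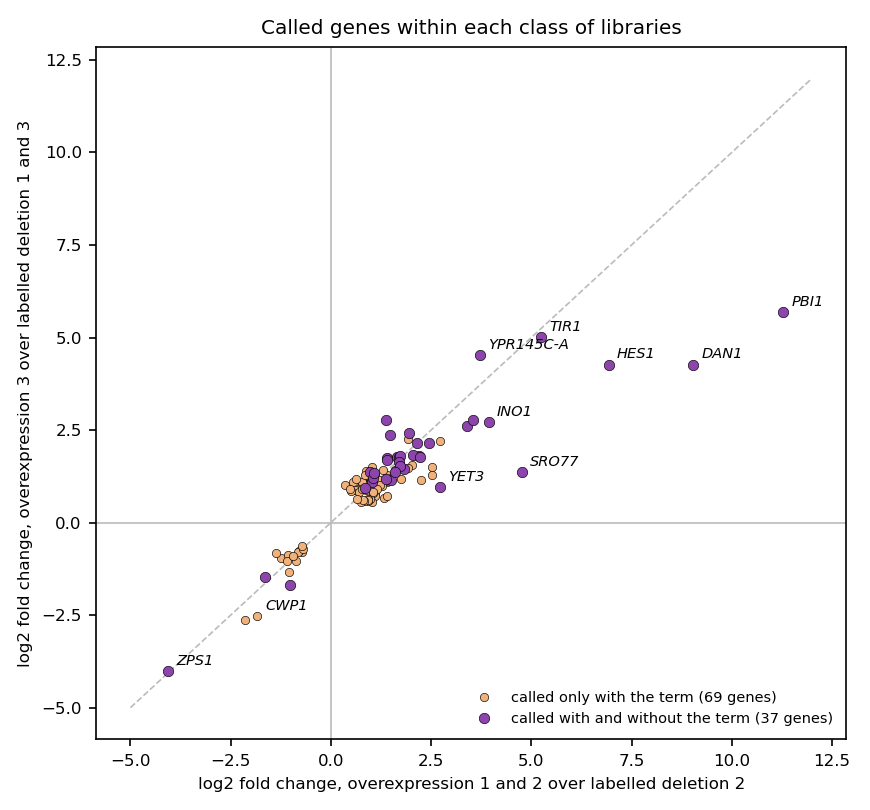
Each point is 1 of the 106 called genes, placed by its log2 fold change between overexpression 1 and 2 and labelled-deletion 2 (x axis) and between overexpression 3 and labelled-deletion 1 and 3 (y axis), with equal values on the dashed line. All lie at the upper right or the lower left, and the calls rest on the same libraries. PBI1, DAN1 and HES1 have 0 counts in labelled-deletion 2, so their place on the x axis depends on the prior count of the fit.

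Of 18 eisosome and Can1 compartment genes, PUN1 and FHN1 were called in both fits and no other in either, at a list median of -0.13. The shares called over all genes were 0.727% without the term and 2.08% with it. PUN1, a plasma membrane protein of the Can1 compartment, stood at 683, 612 and 497 CPM in overexpression libraries 1 to 3, against 135, 206 and 159.9 CPM in labelled-deletion libraries 1 to 3, with 269, 294 and 312 CPM in the controls, between both strains (adjusted p = 0.00146, log2 fold change 1.84, SE 0.23; 1.71 with the term, SE 0.17, adjusted p = 7.81e-07). FHN1, the relative of the eisosome-associated Nce102, stood at 35.0, 64.6 and 54.7 CPM in overexpression libraries 1 to 3, against 11.2, 9.10 and 16.0 CPM in labelled-deletion libraries 1 to 3 (adjusted p = 0.0161, log2 fold change 2.14, SE 0.36; 2.25 with the term, SE 0.37, adjusted p = 6.43e-04), a call that ended without overexpression 2 or labelled-deletion 1 (adjusted p = 0.107 to 0.117). YPS3 and BAG7 are outside that list. YPS3, an aspartic protease of the cell surface, stood at 102, 70.9 and 48.1 CPM in overexpression libraries 1 to 3, against 14.2, 25.8 and 24.0 CPM in labelled-deletion libraries 1 to 3 (adjusted p = 0.0298, log2 fold change 1.90, SE 0.36; 1.64 with the term, SE 0.31, adjusted p = 0.00231), a call that ended without overexpression 1 or 2, labelled-deletion 1 or 3 or control 1, 2 or 3 (adjusted p = 0.0548 to 0.191). BAG7, a GTPase-activating protein for Rho1, stood at 35.0, 36.3 and 56.9 CPM in overexpression libraries 1 to 3, against 8.87, 13.7 and 5.33 CPM in labelled-deletion libraries 1 to 3, with 19.7, 21.4 and 35.2 CPM in the controls (adjusted p = 0.0223, log2 fold change 2.12, SE 0.38; 2.21 with the term, SE 0.39, adjusted p = 0.00120). The BAG7 call ended without overexpression 2, labelled-deletion 1 or 3 or control 1 or 2 (adjusted p = 0.0518 to 0.160).

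The other higher genes fell outside the groups above. TSA2, a peroxiredoxin and the only called one of 27 redox defence genes, stood at 189, 222 and 129 CPM in overexpression libraries 1 to 3, against 62.7, 72.8 and 48.0 CPM in labelled-deletion libraries 1 to 3 (adjusted p = 0.0161, log2 fold change 1.54, SE 0.26; 1.33 with the term, SE 0.21, adjusted p = 3.50e-04). YHB1, the flavohemoglobin that removes nitric oxide, stood at 1109.8, 1007 and 982 CPM in overexpression libraries 1 to 3, against 516, 586 and 514 CPM in labelled-deletion libraries 1 to 3 (adjusted p = 0.0416, log2 fold change 0.94, SE 0.19; 0.89 with the term, SE 0.16, adjusted p = 0.00186). Neither gene overlapped between the groups. ATG5, of autophagosome formation, was at 110.1, 113 and 109 CPM in overexpression and 39.6, 53.1 and 53.3 CPM in the labelled deletion (adjusted p = 0.0368, log2 fold change 1.22, SE 0.24; 1.20 with the term, SE 0.22, adjusted p = 0.00197) and was the only one of 36 autophagy genes called. The shares called over all genes were 0.727% without the term and 2.08% with it. SNZ1, of vitamin B6 synthesis, was at 200.3, 164 and 214 CPM in overexpression and 82.2, 92.5 and 85.3 CPM in the labelled deletion (adjusted p = 0.0368, log2 fold change 1.15, SE 0.23; 1.18 with the term, SE 0.20, adjusted p = 6.97e-04). YIP3, a protein of transport vesicles, was at 436, 525 and 385 CPM in overexpression and 182, 235 and 181 CPM in the labelled deletion, with the controls between them at 308, 328 and 334 CPM (adjusted p = 0.0273, log2 fold change 1.17, SE 0.22; 1.06 with the term, SE 0.17, adjusted p = 4.19e-04). YOR385W (1.58, adjusted p = 0.0203; 1.66 with the term, SE 0.24, adjusted p = 1.15e-04) and YJL213W (1.80, adjusted p = 0.0329; 2.04 with the term, SE 0.33, adjusted p = 4.16e-04) complete the 34. All were called with the term as well. The TSA2 call ended without overexpression 1 or 2 or labelled-deletion 1 or 3 (adjusted p = 0.0550 to 0.112). The YHB1 call ended without overexpression 1 or 2, labelled-deletion 1, 2 or 3 or control 1, 2 or 3 (adjusted p = 0.0676 to 0.199). For ATG5 it ended without overexpression 1 or 2, labelled-deletion 1 or 3 or control 1, 2 or 3 (adjusted p = 0.0516 to 0.202), for SNZ1 without overexpression 1 or 2, labelled-deletion 1, 2 or 3 or control 1, 2 or 3 (adjusted p = 0.0579 to 0.175) and for YIP3 without overexpression 1 or 2, labelled-deletion 1 or 3 or control 1, 2 or 3 (adjusted p = 0.0607 to 0.185). For YOR385W it ended without overexpression 2 or labelled-deletion 1 or 3 (adjusted p = 0.0700 to 0.105) and for YJL213W without overexpression 1, labelled-deletion 1, 2 or 3 or control 1, 2 or 3 (adjusted p = 0.0607 to 0.160).

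Few genes were lower, and the term added 14 to the 3. SCW11 (YGL028C, chromosome VII, 441281 to 442909), a daughter-cell glucanase of the cell wall, stood at 58.4, 47.3 and 50.3 CPM in overexpression libraries 1 to 3, against 179, 108 and 136 CPM in labelled-deletion libraries 1 to 3, with 91.5, 74.2 and 44.0 CPM in the controls (adjusted p = 0.0374, log2 fold change -1.45, SE 0.29; -1.32 with the term, SE 0.25, adjusted p = 0.00251). The labelled deletion lay above both other strains, and the call ended without overexpression 1 or 2, labelled-deletion 1 or 3 or control 1 or 2 (adjusted p = 0.0671 to 0.222). It was the only one of 16 genes expressed at the M/G1 transition called without the term, with PRY3 added by it (-0.80 with the term, SE 0.21, adjusted p = 0.0472), at a median of -0.44 and -0.56. The shares called over all genes were 0.727% and 2.08%. Of the 16 values 13 were below 0, where 48% of all genes had values above 0. CWP1, a cell wall mannoprotein of aerobic cells, overlapped between strains, at 180.2, 118 and 35.0 CPM in overexpression libraries 1 to 3, against 177, 536 and 234 CPM in labelled-deletion libraries 1 to 3, but was lower with the term (-2.05 with the term, SE 0.23, adjusted p = 2.36e-06) and within both classes (-1.84 and -2.52). Without the term its log2 fold change was -1.49, or -0.84 without labelled-deletion 2. ICL1, the isocitrate lyase of the glyoxylate cycle, was at 23.4, 61.5 and 63.5 CPM in overexpression and 93.4, 111 and 147 CPM in the labelled deletion, with 231, 334 and 281 CPM in the controls (-1.12 with the term, SE 0.29, adjusted p = 0.0472). The permease genes MUP1 for methionine (-0.94 with the term, SE 0.19, adjusted p = 0.00435), BAP3 for branched-chain amino acids (-0.76 with the term, SE 0.19, adjusted p = 0.0343) and HXT4 for hexoses (-0.68 with the term, SE 0.18, adjusted p = 0.0480) were lower only with the term, as were IMD2, an IMP dehydrogenase gene (-1.07 with the term, SE 0.27, adjusted p = 0.0368), and SCO1, a copper chaperone of cytochrome oxidase (-1.13 with the term, SE 0.28, adjusted p = 0.0323). The groups overlapped for PRY3 and SCO1. YMR316C-B, at 3, 4 and 1 counts in overexpression and 18, 17 and 10 in the labelled deletion, also passed only with the term (-2.25 with the term, SE 0.56, adjusted p = 0.0336; adjusted p = 0.255 without the term). Its pooled ratio was 0.287 (95% exact interval 0.117 to 0.615, counting error only).

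Higher genes that passed only with the term included KAR2, the endoplasmic reticulum Hsp70, which was at 419, 441 and 823 CPM in overexpression libraries 1 to 3, against 503, 202 and 429 CPM in labelled-deletion libraries 1 to 3. The groups overlapped, with labelled-deletion 1 above overexpression 1 and 2, while within each class overexpression was higher (1.09 and 0.81; 0.94 with the term, SE 0.17, adjusted p = 0.00157). KAR2 was the only one of 20 endoplasmic reticulum chaperone and folding genes called with the term, where 2.08% of all genes were, and none was called without it. The list median was 0.18 without the term. SAM2, an S-adenosylmethionine synthetase, was at 444, 432 and 737 CPM in overexpression and 388, 234 and 322 CPM in the labelled deletion (0.97 with the term, SE 0.17, adjusted p = 0.00114). GSC2, a glucan synthase subunit, was at 118, 88.3 and 52.5 CPM in overexpression and 13.6, 36.4 and 50.6 CPM in the labelled deletion (1.38 with the term, SE 0.35, adjusted p = 0.0430). The largest of the rest were AUA1 (2.28), YMR317W (1.89), OSW2 (1.71) and YLR415C (1.70), with adjusted p of 9.43e-06, 0.0223, 1.26e-04 and 3.57e-04. AUA1 overlaps WWM1 on the opposite strand over 167 bases, so its reads may belong to either. Its groups overlapped, at 30.0, 52.0 and 206 CPM in overexpression and 49.7, 6.07 and 32.0 CPM in the labelled deletion, and without the term its log2 fold change was 1.55 (adjusted p = 0.652), or 0.36 to 2.48 with 1 library left out. The YLR415C value without the term was 1.25, or 1.85 without labelled-deletion 1. YLR415C lies beside PUN1, as YBR071W lies beside HSP26 and both DAN1 and DAN4, and ERG1 and ATF2, lie side by side.

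Set against the control, the called genes showed different orders of the 3 strains. In 26 of the 37 overexpression lay above both other strains, which overlapped each other, an order held by 108 of 5090 genes (2.12%). In ZPS1 and ELO1 overexpression lay below both, as in 59 genes (1.16%) overall. PUN1, SRO77 and YIP3 had overexpression above and the labelled deletion below the control, as 5 of all genes (0.0982%) did, and another 5 had the opposite order. INO1, INO4, BAG7 and IZH1 had the labelled deletion below both other strains, an order of 70 genes (1.38%), and SCW11 had it above both. In ERG3 the labelled deletion lay above the control, with 144, 174 and 154 CPM in the controls. These orders use the libraries that made the calls and describe levels only.

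Many lists held no called gene in either fit. There were none among 132 cytosolic ribosomal protein genes (median -0.05), 83 ribosome biogenesis genes (-0.17), 67 mitochondrial ribosomal protein genes (-0.03), 32 respiratory chain genes (-0.08), 15 genes of the tricarboxylic acid cycle (-0.08) and 29 of glycolysis, fermentation and glycerol (-0.02). The same held for 37 proteasome genes (0.20), 39 amino acid synthesis genes of the Gcn4 set (-0.04), 20 sphingolipid genes (-0.17), 18 genes of triacylglycerol and lipid droplets (-0.06), 16 of membrane contact tethers (0.03), 34 of coat proteins and secretory traffic (0.00145) and 21 of iron uptake (-0.00898). Over all genes 0.727% were called without the term and 2.08% with it. In the lists named here 0 to 2 genes had an unadjusted p under 0.05 in edgeR without the term and 1 to 6 with it. The shares over all genes were 6.76% (344) and 10% (510). The most with the term were 6 of 39 Gcn4 genes and 5 of 37 proteasome genes. The DESeq2 Wald test called 0 genes of these lists, where it called 1.16% of all genes. Other lists without a call in either fit held up to 3 of 18, for pleiotropic drug resistance, without the term. With it they held up to 4 of 17, for G2/M cell cycle genes. On simulated counts the test recovered 12% of 2-fold and 87% of 4-fold changes without the term and 33% and 98% with it, so changes near 2-fold in these lists could be missed.

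**Figure D5:**
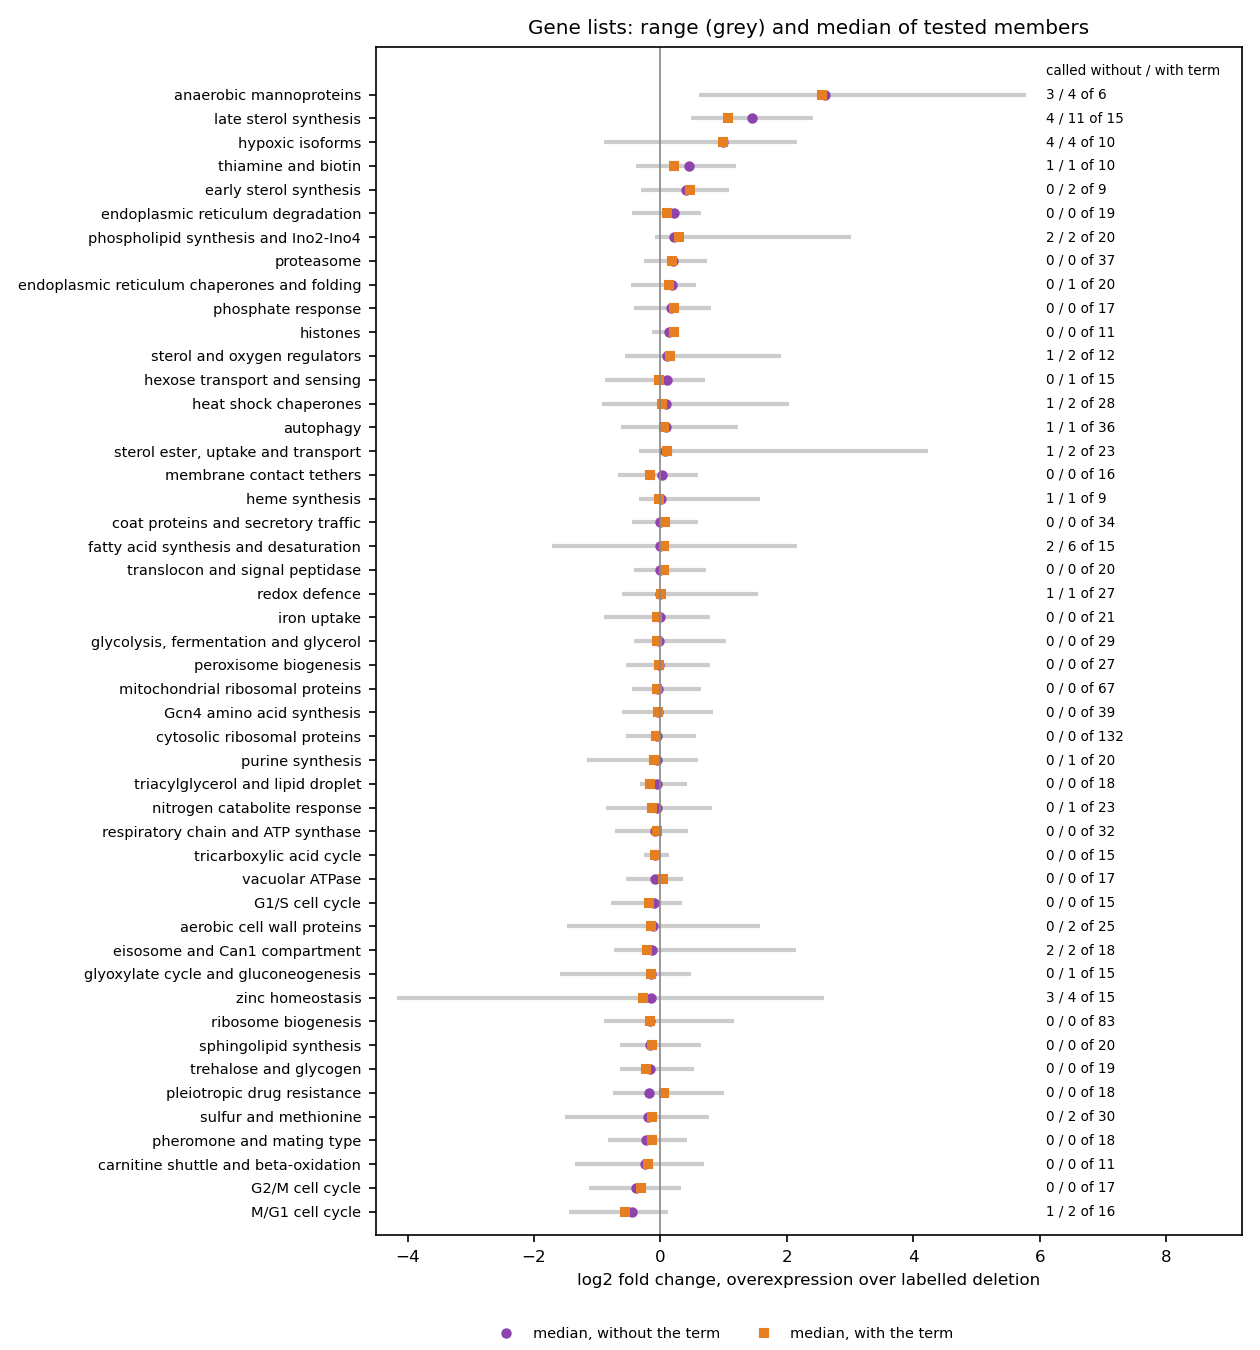
Gene lists with at least 5 tested members, ordered by the median log2 fold change of overexpression over labelled deletion (x axis), with the range of members as a grey bar, the median without the term as a circle and with it as a square. At the right stand the called members without and with the term and the number tested. Anaerobic mannoproteins and late sterol synthesis lie at the top, and most medians lie within 0.5 of 0.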

How the data were processed

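For each of the 9 yeast libraries the authors deposited raw RNA sequencing counts per open reading frame, as whole numbers. The submitters' processing notes name UMI-tools, cutadapt and build R64. The sources used here do not give the aligner, the counted part of each gene, the use of strand or the handling of shared reads, so overlapping genes and near-identical families are uncertain. Whether a count is a molecule or a read is not given either, so intervals cover counting error only.

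The first row of each of 2 repeated identifiers was kept, which left 6629, of which 5956 matched a RefSeq R64 locus tag for symbol and coordinates. Totals ran from 223189 to 1634021 counts per library, which limits the precision of low genes. Genes were kept with filterByExpr (a count of at least 10, and 15 in total), leaving 5090, and scaled by TMM. All 9 libraries entered 1 fit with edgeR's quasi-likelihood test (R 4.3.3, edgeR 4.0.16, limma 3.58.1), with Benjamini-Hochberg adjustment over all genes at 0.05. The term is a column that marks libraries whose YLR154W rows hold under 0.5% of counts. Standard errors are the log2 fold change over the square root of F. Levels are TMM-scaled CPM.

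On simulated counts for these genes, with 100 changed 2-fold and 100 changed 4-fold, 1 unchanged gene was called without the term and 2 with it. The changed genes were drawn from those with a mean of at least 20 CPM. The spread was the trend over all genes in the fit without the term. Shifts of genes that differed between the classes of libraries were added to it, so the class difference entered more than once. Counts of libraries of a strain differed by more than sampling noise, so the fits kept each library apart. Chi-square per degree of freedom was 1.5 to 4.36 between controls, 2.43 to 16.5 between overexpression libraries and 8.46 to 18.1 between labelled-deletion libraries. The controls share the estimate of spread with the strains compared. The pooled ratios of genes with few counts do sum the libraries of a strain, and their intervals leave this spread out.

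Members, lists and tests were chosen with earlier results of these data known. The rule for named genes took YET3, its relatives and neighbours, the labelled markers, the 15 largest called changes in each direction whose libraries do not overlap, the 10 largest with the term not already named, up to 4 called members of each of 51 lists, or else the member with the smallest p, and all late sterol and phospholipid genes. Lists with no called gene are given by counts and medians. AHK1 and BDF2, the neighbours of YET3, were called in neither fit. YER053C-A, also taken by the rule, was lower only with the term (-1.10 with the term, SE 0.26, adjusted p = 0.0201). FAS1, ACC1, YPS3, YIP3, YHB1, YOR385W, HMG1, HMG2, ANB1, COX5B, CYC7, TIR4, MFA1, MFA2, WWM1 and YBR071W lie outside that rule and were named after their values were seen. The CATGTG motif was added after a longer form gave no match in the 34 higher genes. The alternatives were DESeq2 size factors and its Wald test (DESeq2 1.42.0), other filters, other sets of libraries, the replicate number as a block and each library left out.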

Additional observations from a re-analysis of the deposited data

How the results depend on the processing

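The main counts were 34 higher and 3 lower genes, and 4 late sterol genes. For the same results in that order, the DESeq2 Wald test gave 54, 5 and 10, the fit of the 6 libraries 13, 2 and 1, the term 89, 17 and 11, and the fit without the libraries low in YLR154W 59, 17 and 12. Within those libraries 5 genes were lower and 7 late sterol genes higher, and without a filter on low counts 7 late sterol genes were higher. Leaving out 1 library gave 14 to 57 higher, 1 to 17 lower and 1 to 10 late sterol genes. The remaining counts, with DESeq2 size factors, the filter of 20 CPM, the libraries not low in YLR154W and YET3 and HO left out, stayed within 1.5 times. The cause of these shifts was not tested. Fewer libraries leave fewer degrees of freedom, and the part this played was not tested either. Of the 37 genes 12 were called under all 21 alternatives, and none of the 37 changed sign where its value was recomputed. The same held for late sterol genes and for genes called only with the term that were named by rule or belong to a list. The remaining genes called only with the term were not followed across the alternatives, so nothing is said of their sign. Among genes called in neither fit, HMG1 (0.41) and HMG2 (0.38) turned to -0.27 and -0.46 within the libraries low in YLR154W, and CHO1 (0.11) to -0.02 within the others.

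The labels do not state that replicate numbers pair libraries. Deviations of same-numbered overexpression and labelled-deletion libraries correlated at -0.46, 0.511 and 0.312 for numbers 1 to 3, and overexpression 1 correlated best with labelled-deletion 2 (0.594). Pairs of the same YLR154W class correlated at 0.312 to 0.594 and pairs of different classes at -0.712 to -0.231. The class was left in these deviations, so they neither show nor exclude pairing by number. With the replicate block 24 genes were higher, 3 lower and 3 late sterol genes higher, and with the block and the term 76, 18 and 11. Depth limits genes of few counts, where 3 counts stand for 1.84 to 7.43 CPM in the compared libraries.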
